A study of Mus musculus with 3 samples.

Results

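The genes described here are the 3 transforming growth factor beta (TGF-β) ligand genes Tgfb1, Tgfb2 and Tgfb3, the receptor genes Tgfbr1 and Tgfbr2, and 4 genes that respond to the pathway, Smad7, Skil, Tgfbi and Pmepa1. Each was read through every probe set that the platform annotation assigns to it alone. This gave 13 probe sets for 8 of the 9 genes, out of 28898 probe sets for 17097 genes on the array, and no single-gene probe set was listed for Pmepa1, which was not analysed here. Expression was measured on 3 one-colour Affymetrix arrays of mesenchymal progenitors (PaS+ cells sorted by FACS) from bone marrow of adult mice of strain C56Bl/6, aged 8 weeks. All cells were kept in MesenCult medium for 7 days of culture at 1% oxygen, were transduced overnight with a lentiviral short hairpin RNA (shRNA) and were collected 4 days later. One array held cells given a control hairpin (shCTR), 1 held cells given a hairpin against HIF-1α and 1 held cells given a hairpin against HIF-2α, so all 3 groups shared the low oxygen and the lentivirus. Cells at normal oxygen or without a vector were not analysed here. With 1 array per group no spread between cultures could be measured, no difference was tested, and all values below are limited in precision by the single array behind each.

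TGF-β is secreted as a latent complex that is stored in the extracellular matrix and must be released before it can act. The freed ligand binds the type II receptor kinase encoded by Tgfbr2, which recruits and phosphorylates the type I kinase encoded by Tgfbr1, and this in turn phosphorylates SMAD transcription factors that move to the nucleus. The pathway switches on its own inhibitors, among them Smad7 and Skil, together with matrix genes such as Tgfbi. In bone, TGF-β stored in the matrix is set free when bone is resorbed, and it guides mesenchymal progenitors to the resorbed surface. HIF-1α and HIF-2α are transcription factor subunits that build up when oxygen is low, and the comparisons ask what differs in progenitors at low oxygen when either is targeted.

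Among the measured members, Tgfbi separated the arrays most. Its 2 probe sets were both lowest with the HIF-2α hairpin, at 60.0% and 59.6% of control and at 44.0% and 50.4% of the HIF-1α hairpin. The ligand gene Tgfb3 was ordered the same way, whereas Tgfbr1 and Tgfbr2 differed little or not at all on their brightest probe sets. Smad7 and Skil gave higher readings with either hairpin, Smad7 at 121.1% of control on both arrays and Skil at 112.8% and 126.5%. Where members of a pathway differ in this way, the sequences before their start sites are of interest. The promoter windows of Tgfbi, the member with the largest differences, and of Tgfbr2, whose brightest probe set gave the same value on every array, are printed here, from 250 bases before to 50 bases after the start in RefSeq's GRCm38.p6 annotation. Capitals mark GCGTG, a core that hypoxia-inducible factors can bind.

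Tgfbi, chr13:56609336-56609635, + strand: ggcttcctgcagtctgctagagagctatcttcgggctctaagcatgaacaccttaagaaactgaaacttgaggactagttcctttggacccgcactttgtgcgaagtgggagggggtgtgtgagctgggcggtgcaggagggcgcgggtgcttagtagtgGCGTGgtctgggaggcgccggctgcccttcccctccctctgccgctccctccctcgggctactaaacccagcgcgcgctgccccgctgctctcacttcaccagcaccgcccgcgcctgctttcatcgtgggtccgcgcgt
Tgfbr2, chr9:116175314-116175613, - strand: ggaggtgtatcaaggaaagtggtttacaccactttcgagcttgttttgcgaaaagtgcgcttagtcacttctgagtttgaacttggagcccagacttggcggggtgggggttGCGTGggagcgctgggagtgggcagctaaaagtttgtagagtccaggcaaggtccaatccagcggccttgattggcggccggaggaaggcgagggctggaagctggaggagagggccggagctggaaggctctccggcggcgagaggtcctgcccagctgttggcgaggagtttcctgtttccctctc

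Both windows held 1 copy of GCGTG, which began 90 bases before the start of Tgfbi and 138 bases before that of Tgfbr2, and neither held ACGTG, the other form of the core. Both forms were searched on both strands, no match in these genes overlapped one of another motif, and 43.8% of 32851 windows of this length held at least 1 of them. The core was present in the window of Tgfbi and in that of Tgfbr2, of which only the brightest probe set gave equal values. Its part in any difference was not tested. A pair of SMAD motifs was searched in the same way. CAGACA was present in 21.0% of all windows and the palindrome GTCTAGAC in 0.213%, and the windows of Tgfbi and Tgfbr2 held neither. Windows were at hand for 5 of the 9 genes. That of Tgfb1 held 1 copy of GCGTG, that of Tgfb2 held ACGTG on both strands at 1 place, where it overlaps itself, and 1 CAGACA, and of the 2 windows of Tgfbr1 one held 2 copies of GCGTG and the other held 1 CAGACA. A match is a description of letters and was not taken as a binding site.

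The targeted genes were read as a check of the labels, which Hif1a did not bear out. Hif1a read 352.1 with the control hairpin and 332.4, or 94.4% of control, with either other hairpin. The array labelled for HIF-1α was thus no lower for it than the other. Epas1, which encodes HIF-2α, was dim, at 5.09 on the control array, 9.44 on the array labelled for HIF-1α and 3.21 on that labelled for HIF-2α. The last value lay under 3.47, the highest of 23 nonspecific control probe sets on any array and the level used here as background. The hairpin arrays are named shHIF-1a and shHIF-2a after their labels alone, on which each direction below rests. All 11 mesenchymal progenitor markers with a probe set passed the background level on every array, and Ly6a, also on that list, had no single-gene probe set. Thy1, Pdgfrb and Lepr were dim, under 16 on every array, with Lepr at 4.47, 3.86 and 5.34 on the control, shHIF-1a and shHIF-2a arrays. Of 8 listed osteogenic markers Runx2, Spp1 and Alpl had no single-gene probe set. None of the 5 with a probe set passed the background level on any array. Of 15 haematopoietic, 5 megakaryocyte, 5 erythroid and 10 endothelial markers only Cd14 and Cd68, Ppbp, Tfrc and Egfl7, respectively, passed it on any array. The values below are RMA intensities on a linear scale, and a probe set was called measured when it reached 16 on at least 1 array, which 7 of the 13 member probe sets, for 6 genes, and 8606 of all single-gene probe sets did. A difference was called when it was at least 2-fold.

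**Figure D1:**
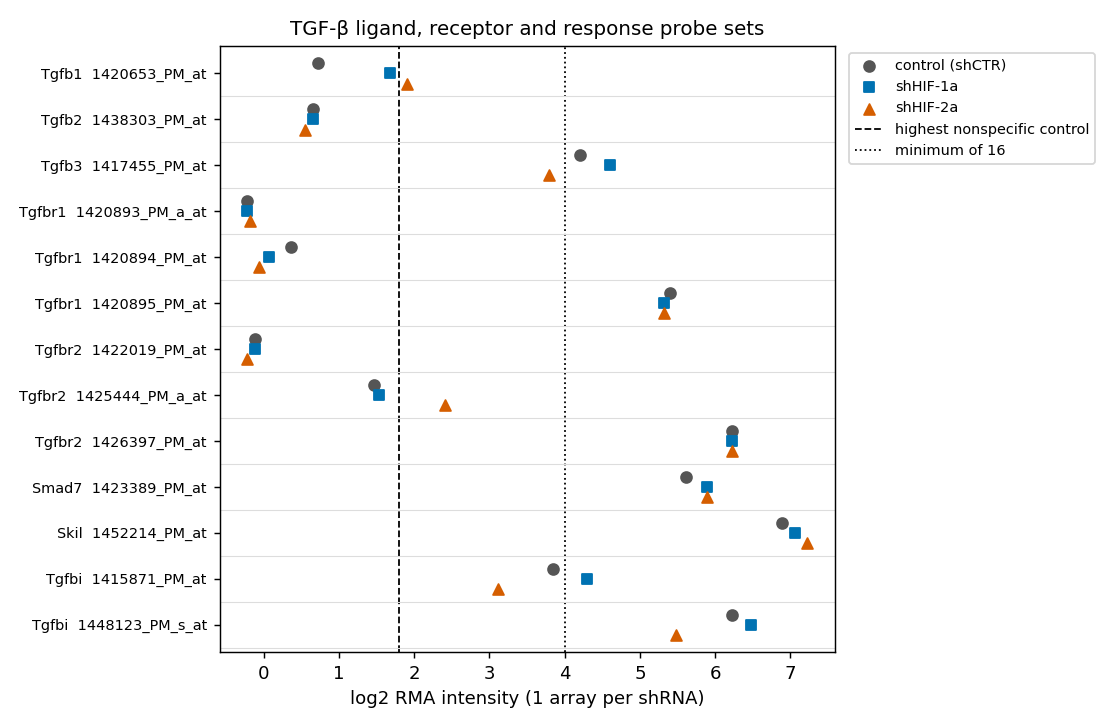
Log2 RMA intensity of the 13 member probe sets (rows) on the control, shHIF-1a and shHIF-2a arrays (circle, square and triangle, 1 array each), with the highest nonspecific control (dashed) and the minimum of 16 (dotted). Both Tgfbi probe sets and Tgfb3 are lowest on the shHIF-2a array and highest on the shHIF-1a array, while the points of the brightest Tgfbr2 probe set coincide.

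Among the ligands only Tgfb3 was measured. Tgfb3, which encodes the isoform TGF-β3, read 18.4 on the control array, 24.2 on the shHIF-1a array and 13.8 on the shHIF-2a array. It was thus highest with the HIF-1α hairpin and lowest with the HIF-2α hairpin, and all 3 values lay well above the nonspecific level. The log2 differences were 0.40 for shHIF-1a over control, −0.41 for shHIF-2a over control and −0.81 for shHIF-2a over shHIF-1a. Tgfb3 has 1 probe set, so no second reading was at hand.

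Tgfb1, the most widely expressed of the ligand genes in the body, was near background on its only probe set. It read 1.65 on the control array, 3.20 on the shHIF-1a array and 3.75 on the shHIF-2a array. Only the last value passed the nonspecific level of 3.47, by which it was at least 1.08-fold higher than control, so the log2 difference of 1.19 between these readings is not a measured fold. Tgfb2, the ligand gene needed for heart and skeletal development, read 1.58, 1.58 and 1.47 in the same order and was under the nonspecific level throughout. These readings describe single probe sets and do not show that the ligands were absent.

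For the receptors, 1 probe set of each gene carried the signal. Tgfbr2, the receptor kinase that binds the ligand first, read 75.0 on each of the 3 arrays on its probe set 1426397_PM_at. The values were identical to the last deposited digit, and exactly the same value was deposited for 70 probe sets on the control array, 20 on the shHIF-1a array and 13 on the shHIF-2a array. Identical values were common in this table: of all measured probe sets 19.9% were equal between control and shHIF-1a, 15.3% between control and shHIF-2a and 26.6% between the hairpins, so a small difference in Tgfbr2 may not have been recorded. A second probe set, 1425444_PM_a_at, which matches several transcripts of the gene, read 2.76, 2.91 and 5.34 and passed the nonspecific level only on the shHIF-2a array, where it was at least 1.54-fold above the control reading. The third, 1422019_PM_at, read 0.92, 0.92 and 0.86, all under that level. The probe sets of Tgfbr2 thus differed in what they showed on the shHIF-2a array, and the one that passed background there was dim.

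On 1420895_PM_at, Tgfbr1, the type I receptor kinase that phosphorylates SMAD proteins, read 42.0 with the control hairpin and 39.8 with either other hairpin. This was 94.8% of control with either hairpin, a log2 difference of −0.08. The other probe sets of Tgfbr1 were under the nonspecific level on every array, 1420893_PM_a_at at 0.86 to 0.88 and 1420894_PM_at at 0.96 to 1.29, and carried no usable difference.

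The inhibitors of the pathway gave slightly higher readings on both hairpin arrays. Smad7, which encodes an inhibitory SMAD that occupies the receptor and draws ubiquitin ligases to it, read 49.1 on the control array and 59.5 on both hairpin arrays. The log2 difference from control was 0.28 in each case and that between the hairpins was 0. Skil encodes SnoN, a repressor that binds SMAD complexes on DNA and is broken down when the pathway is active. It read 118.4 on the control array, 133.6 on the shHIF-1a array and 149.8 on the shHIF-2a array, giving log2 differences of 0.17 and 0.34 from control and 0.17 between the hairpins. Among all 8606 measured probe sets the median difference from control was itself above 0, at 0.07 on the shHIF-1a and 0.09 on the shHIF-2a array. On the shHIF-1a array 76.2% of these probe sets lay below Smad7 and 65.3% below Skil, and on the shHIF-2a array 69.4% and 74.2%. Neither inhibitor therefore stood outside the range of most probe sets.

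Tgfbi encodes a secreted matrix protein that binds collagens and integrins and takes its name from its induction by TGF-β. On its brighter probe set, 1448123_PM_s_at, it read 75.0 on the control array, 88.7 on the shHIF-1a array and 44.7 on the shHIF-2a array. The suffix of that probe set marks probes shared between transcripts. On the other, 1415871_PM_at, it read 14.4, 19.6 and 8.63 in the same order. Both probe sets placed the shHIF-2a array lowest and the shHIF-1a array highest, above the nonspecific level in every case. Against control the log2 differences on the shHIF-2a array were −0.75 and −0.74, a gap of 0.01 between the probe sets. On the shHIF-1a array they were 0.24 and 0.45. The control reading of the brighter probe set was the same deposited value as that of Tgfbr2, shared by 70 probe sets on that array. After quantile normalization the differences on the shHIF-2a array lay further apart, at −0.86 on the brighter and −1.22 on the dimmer probe set. In the direct comparison of the hairpins the difference was −0.99 on the brighter probe set, just short of 2-fold, and −1.18 on the dimmer one, just past it. The dimmer probe set was 2.27-fold lower on the shHIF-2a than on the shHIF-1a array, and the brighter one 1.99-fold lower. The probe sets were read from the same RNA on the same arrays and are not replicates of the condition.

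As a yardstick within the arrays, probe sets of the same gene differed with a pooled SD of 0.24 for shHIF-1a over control, 0.33 for shHIF-2a over control and 0.18 for shHIF-2a over shHIF-1a, over 1778 genes with more than 1 measured probe set. It measures disagreement between probe sets, which can match different transcripts of a gene, and not the spread between cultures. For shHIF-1a over control 4 of the 7 measured member probe sets differed by more than the SD, namely those of Tgfb3, at 0.40, Smad7, at 0.28, and Tgfbi, with 0.24 on the brighter one just past it. For shHIF-2a over control 4 did, both of Tgfbi, that of Tgfb3 at −0.41 and, just past the SD, that of Skil at 0.34, while Smad7, at 0.28, fell short. In the direct comparison 3 did, those of Tgfb3 and Tgfbi, and Skil, at 0.17, fell short. Tgfbr1 and Tgfbr2 stayed within the SD in each comparison. Set against these same SDs, some of the differences fell short once the arrays were scaled. For shHIF-1a over control, quantile normalization gave 0.15 for Tgfb3, 0.18 for Smad7 and 0.12 and 0.17 for Tgfbi, each under 0.24. After cyclic loess only the dimmer Tgfbi probe set, at 0.25, stayed past that SD. For shHIF-2a over control Skil fell short at 0.29 after either scaling, while Tgfb3 and Tgfbi moved further below 0. Of the 8606 measured probe sets 1.13% and 1.20% had a lower difference from control on the shHIF-2a array than the Tgfbi probe sets, and 3.94% had a lower one than Tgfb3. In the direct comparison these shares were 0.930% and 0.616% for Tgfbi and 1.55% for Tgfb3.

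No member probe set of the 7 measured was called for shHIF-1a over control, where 2.87% of all measured probe sets were called. None was called for shHIF-2a over control either, where the share was 6.31%. For shHIF-2a over shHIF-1a 1 of the 7 was called, the dimmer Tgfbi probe set, which was lower, against 1.98% called in either direction and 0.895% called lower. That call rests on a dim probe set: it read at least 16 on the shHIF-1a array only, and with 16 added before log2 its difference was −0.53, with −0.79 for the brighter one. With the arrays scaled by quantile normalization the difference of the dimmer probe set from control on the shHIF-2a array was −1.22, past 2-fold. Over the 7 probe sets the median log2 difference was 0.24 for shHIF-1a over control, with 5 above 0, 1 equal and 1 below. For shHIF-2a over control it was −0.08, with 2 above, 1 equal and 4 below, and for shHIF-2a over shHIF-1a it was 0, with 1 above, 3 equal and 3 below. The medians over all measured probe sets were 0.07, 0.09 and 0. Of these, 62.0%, 61.4% and 44.4% lay above 0 and 18.0%, 23.3% and 29.0% below, in the same order of comparisons. Both Tgfbi probe sets count among the 7. For shHIF-1a over control the member median was 0.15 after cyclic loess and 0.12 after quantile normalization. For shHIF-2a over control it was −0.21 and −0.23. The first pair of comparisons shares the control array, so these medians are not independent of each other.

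**Figure D2:**
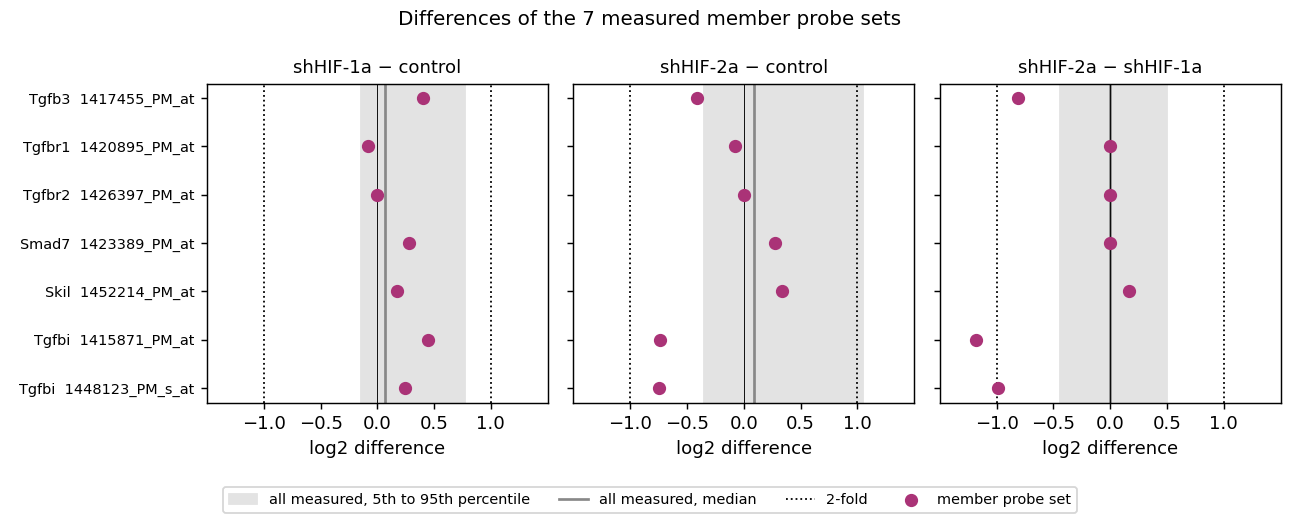
Log2 differences of the 7 measured member probe sets (points) in the 3 comparisons, with the 5th to 95th percentile (band) and the median (grey line) of all 8606 measured probe sets and the 2-fold limits (dotted). Tgfb3 and both Tgfbi probe sets lie left of the band in the comparisons that involve the shHIF-2a array, and only the dimmer Tgfbi probe set, at −1.18 for shHIF-2a over shHIF-1a, passes 2-fold.

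Other readings moved with the shHIF-2a array and are given beside the Tgfbi and Tgfb3 differences. The hybridisation controls (12 probe sets of bacterial and phage sequence, added to the sample during the assay) had a median log2 difference from control of −1.02 there, with a range of −1.39 to −0.50, and one of 0.08 on the shHIF-1a array. The 6 control probe sets for Gapdh and β-actin had a median of −0.05 on each. Smooth muscle markers, some of which TGF-β also induces, summed to 748.1 on the control, 782.9 on the shHIF-1a and 557.9 on the shHIF-2a array. That sum is over 9 of 11 listed markers, 3 of which (Acta2, Tpm2 and Myl9) passed the nonspecific level and 6 of which (Cnn1, Myh11, Des, Rgs5, Mcam and Actg2) did not on any array. Acta2 is also one of the response genes described below. The mesenchymal progenitor markers summed to 1888.3, 1999.6 and 1689.0 in the same order. Within that list Cxcl12, a chemokine that retains blood stem cells in the marrow, read 249.96, 177.9 and 72.3, which was 3.46-fold lower than control on the shHIF-2a array. Thy1 was dim, at 13.1, 12.4 and 6.72, the last 51.5% of control. The rest of that list went both ways. Pdgfra, Cd44, Eng and Lepr read 125.3%, 115.2%, 117.1% and 119.5% of control on the shHIF-2a array. Itgb1 and Vcam1 equalled control there, and Prrx1, Pdgfrb and Nt5e read 95.1%, 88.2% and 79.5% of it. Ppbp, a platelet chemokine gene of the megakaryocyte list, read 59.3, 64.5 and 187.0, or 3.16-fold above control on the shHIF-2a array. In the same megakaryocyte list Pf4, Itga2b, Gp9 and Gp1bb were under the nonspecific level throughout. The macrophage marker Cd68 was dim, at 1.59, 3.02 and 7.24, and was at least 2.08-fold above control on the last. Cd14, the only bright marker of the 15 in the haematopoietic and macrophage list, read 93.4, 87.8 and 93.2. The rest of those 15 were under the nonspecific level on every array.

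Interferon-induced genes were also brighter on both hairpin arrays. Summed over all 15 with a probe set, with no minimum applied, they read 55.7 on the control, 584.3 on the shHIF-1a and 1059.8 on the shHIF-2a array. Of these genes 11 were under the nonspecific level on the control array, and 10 of the 11 that reached 16 anywhere did so only on a hairpin array, so a count of the measured ones would be set in part by the minimum. Ddx58, which encodes the RNA sensor RIG-I and alone reached 16 on the control array, read 17.4, 78.9 and 93.8, which was 4.52-fold and 5.37-fold above control. Ifit1, an RNA-binding antiviral protein gene, read 1.04, 93.8 and 186.3, at least 27.0-fold and 53.7-fold above control. Mx1 was under the nonspecific level on every array. The part of each of these readings, from the hybridisation controls to the interferon-induced genes, in the differences of Tgfbi and Tgfb3 was not tested. In bulk RNA, fewer cells of a type and less RNA per cell cannot be told apart.

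By likeness of pattern over the 3 arrays, measured as the Euclidean distance between log2 profiles centred on their own mean, the probe sets nearest to the called Tgfbi probe set were those of Ehd3, Ppp3ca and Rnf144a, at distances of 0.03, 0.06 and 0.07. Ehd3, an ATPase of endocytic recycling, read 15.0, 19.9 and 8.99 on the control, shHIF-1a and shHIF-2a arrays. Ppp3ca, the catalytic subunit of the phosphatase calcineurin, on a shared probe set, read 67.0, 91.9 and 42.6. Rnf144a, a ubiquitin ligase, read 29.6, 42.3 and 19.0. In all 5 of 8604 probe sets of other genes lay within 0.1, and 3 arrays allow few distinct patterns.

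The rest of the pathway was read from 5 lists that together hold 96 genes, each by its brightest single-gene probe set, and 58 were measured. Genes given below as highest or lowest are so by their log2 difference within their list. Among these 58 genes none was called for shHIF-1a over control, where 2.81% of 6231 measured genes were called. For shHIF-2a over control 1 was called higher and 3 lower, where 5.52% of all measured genes were called higher and 0.658% lower. For shHIF-2a over shHIF-1a none was called higher and 2 were called lower, against 1.08% and 0.915%. The medians over the 58 genes were 0.05, 0.00 and −0.01, beside 0.07, 0.10 and 0 over all measured genes.

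Genes that hold TGF-β latent in the matrix or release it were mostly lower on the shHIF-2a array. Of 8 measured members 6 were below control and 2 above, with a median of −0.31, beside 22.2% below control over all measured genes, and 2 were called lower. Fmod encodes fibromodulin, a collagen-bound proteoglycan that binds TGF-β. It read 139.0 on the control array, 201.0 on the shHIF-1a array and 60.3 on the shHIF-2a array, and was 2.31-fold lower than control and 3.33-fold lower than the shHIF-1a array on the last. Its order over the arrays was that of Tgfbi and Tgfb3. Emilin1, an elastic fibre glycoprotein that restrains processing of the TGF-β precursor, read 189.3, 168.7 and 90.3 and was 2.10-fold lower than control on the shHIF-2a array, a call that was lost with 16 added before log2, at −0.95. The latent TGF-β binding protein genes, given here as a family, did not share a direction there: Ltbp1 differed from control by 0.18, Ltbp2 by −0.50 and Ltbp3 by −0.52, and Ltbp4 was not measured. On the shHIF-1a array the list had a median of 0.10, with Fmod highest at 0.53 and Emilin1 lowest at −0.17, and no call.

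Other receptors and coreceptors of the superfamily gave no call in any comparison. Over 6 measured genes of 11 the median was 0.10 for shHIF-1a and −0.04 for shHIF-2a over control, and the first turned to −0.04 after quantile normalization. Acvr2a, an activin type II receptor, read 13.6 on the control array and 23.8 on both hairpin arrays, a difference of 0.81 with each. Bmpr2, the type II receptor for bone morphogenetic proteins, was lowest for shHIF-1a over control, at −0.23. Acvr1b, an activin type I receptor, was lowest for shHIF-2a over control at −0.44 and from shHIF-1a at −0.60.

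SMAD genes and their regulators lay slightly above control with the HIF-2α hairpin. Of 16 measured genes of 21, 14 were above 0, 1 equal and 1 below, with a median of 0.14, beside a median of 0.10 and 3897 of 6231 above 0 over all measured genes. After cyclic loess 11 of the 16 were above 0 with a median of 0.05, and after quantile normalization 10 with a median of 0.02. Wwp1, a ubiquitin ligase that acts on pathway components, was called higher: its probe set 1427097_PM_at read 27.2, 43.3 and 56.0 on the control, shHIF-1a and shHIF-2a arrays, 2.06-fold above control on the last. The other Wwp1 probe sets were under the minimum of 16. Of these, 1427098_PM_at read 2.23, 4.32 and 6.19, in the same order as the called one and at least 1.78-fold above control on the shHIF-2a array, 1452299_PM_at read 14.2 on all 3 arrays and 1452300_PM_at was under the nonspecific level throughout. The difference of the called probe set, 1.04, was 0.91 after cyclic loess, 0.86 after quantile normalization and 0.74 with 16 added before log2, each above 0 and short of 2-fold. Smad2, a receptor-activated SMAD, differed by 0.73 from control and 0.51 from the shHIF-1a array, whereas Smad3, its close relative, read 76.6 on all 3 arrays. Smad4, the shared partner of both, differed from control by 0.13 and 0.14 on the shHIF-1a and shHIF-2a arrays. Smad6, the inhibitory SMAD that acts mainly on bone morphogenetic protein signals, was lowest on the shHIF-2a array, at −0.22, and Strap, a receptor-associated protein that supports Smad7, was lowest on the shHIF-1a array, at −0.13.

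The response genes outside the members lay on both sides of control, and more of them below it than above on either hairpin array. Of 20 measured genes of 30, 8 were above control, 3 equal and 9 below with the HIF-1α hairpin, and 7 above, 1 equal and 12 below with the HIF-2α hairpin, with medians of 0.00 and −0.04. That is 45.0% and 60.0% below control, beside 17.9% and 22.2% over all measured genes, where the medians were 0.07 and 0.10. With the HIF-2α hairpin 12 were also below control after cyclic loess, after quantile normalization and with 16 added before log2. With the HIF-1α hairpin 10 were above and 10 below after cyclic loess, and 8 above and 12 below after quantile normalization. These scalings also took the medians over all measured probe sets to −0.01 and 0.01 (cyclic loess) and to −0.02 on both hairpin arrays (quantile). The share of all genes below control was not computed after scaling, so the scaled counts have no background beside them. Col1a1, a chain of type I collagen, was called lower, at 130.4, 126.9 and 48.1 on the control, shHIF-1a and shHIF-2a arrays, or 2.71-fold below control and 2.64-fold below the shHIF-1a array. Ccn2, the connective tissue growth factor gene and a textbook TGF-β target, read 671.7 on all 3 arrays and so recorded no difference. Snai2, a repressor of epithelial genes, was highest on the shHIF-1a array at 0.41 and Spsb1, an adaptor that targets the type II receptor for degradation, highest on the shHIF-2a array at 0.38. Cdh2, which encodes N-cadherin, was lowest on the shHIF-1a array at −0.35 and highest in the direct comparison at 0.50. Tgfbi's order over the arrays was highest with the HIF-1α hairpin and lowest with the HIF-2α hairpin. It was shared by 6 of the 20, namely Acta2, Sphk1, Ltbp2, Cdkn2b, Junb and Id3, beside 536 of all 6231 measured genes. The order was not particular to the response genes. It was also that of 4 of 9 related ligands and antagonists, 3 of 8 latency genes and 2 of 6 receptors, and of 0 of 16 SMAD genes and regulators. The order was counted at any size of difference and was not counted after scaling. On the shHIF-1a and shHIF-2a arrays Dcn, a latency gene, differed from control by only 0.07 and −0.03. Tgfbr3, a receptor gene, differed by 0.05 and −0.09. Acta2, the smooth muscle actin gene, read 373.6, 428.7 and 232.9 on the control, shHIF-1a and shHIF-2a arrays, a difference of −0.68 from control on the last, on a probe set shared between transcripts. Sphk1, a kinase that makes sphingosine 1-phosphate, read 29.3, 35.2 and 20.7, and Ltbp2, which is also in the latency list, read 384.1, 418.9 and 270.9, each with a difference of −0.50. The differences of Cdkn2b, a cell cycle inhibitor gene, and of Junb and Id3, both transcription regulator genes, were smaller, at −0.25, −0.13 and −0.13. The reverse order was seen in 3 of the 20, Klf10, Timp1 and Cdh2, beside 373 of all 6231 measured genes. The response genes thus differed among themselves on the shHIF-2a array, with Tgfbi, Col1a1, Acta2, Sphk1 and Ltbp2 between −1.44 and −0.50, Ccn2 at 0, and Smad7, Skil and Spsb1 between 0.28 and 0.38.

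Related ligands and their antagonists gave no call. Over 9 measured genes of 20 the median was 0.10 for shHIF-1a and −0.17 for shHIF-2a over control, and the first turned to −0.06 after quantile normalization. Lefty1, an inhibitor of Nodal, was highest on the shHIF-1a array at 0.89, with readings of 16.6, 30.7 and 27.9. Bmp2, a bone morphogenetic protein, was highest on the shHIF-2a array at 0.95, with readings of 9.95, 12.0 and 19.3. Fstl3, which binds activin, was lowest on both, at −0.41 and −0.46, and Bmp1, a protease that matures collagen and frees latent TGF-β, was lowest in the direct comparison at −0.55.

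**Figure D3:**
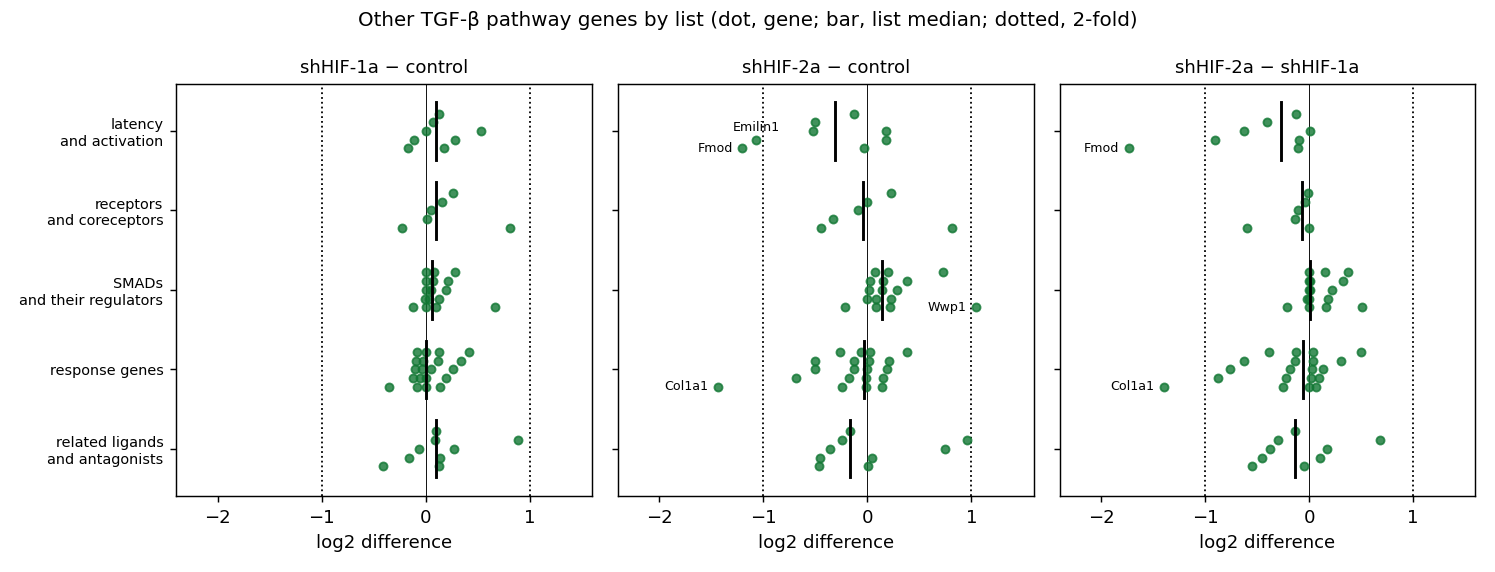
Log2 differences of the measured genes of 5 pathway lists (dots, 1 per gene by its brightest probe set; bars, list medians) in the 3 comparisons, with genes past 2-fold (dotted) named. No gene passes 2-fold for shHIF-1a over control, and Fmod, Emilin1 and Col1a1 lie below −1 and Wwp1 above 1 for shHIF-2a over control.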

How the data were processed

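The authors deposited 1 table of RMA intensities, made with RMA per the submitters' processing notes, whose version and settings these sources do not state. The intensities are linear, as medians of 1.37 to 1.41 and maxima of 1698 to 1747 show. Each array was assigned from its title in the labels. Log2 was taken with no further scaling (Python 3.11.15, pandas 2.3.3). The platform table listed 29449 probe sets, 28898 with 1 gene and 551 with several; 15588 others were unlisted and 104 were controls. Entrez identifiers linked 28689 of the single-gene probe sets to RefSeq symbols (GRCm38.p6).

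With 1 array per group there was no test. A probe set was measured at 16 or more on at least 1 array and called at 2-fold or more; where the dimmer value lay under 3.47 the fold is a lower bound. The calling step was run on simulated data with changes well past the 2-fold limit, which checks its code and not calls near that limit. Alternatives were cyclic loess and quantile normalization (limma 3.58.1), 16 added before log2, other minimums and the mean of a gene's probe sets. Named genes are all member probe sets and, of each list, the genes past 2-fold and the highest and lowest difference of each comparison, plus the 3 most alike probe sets. The Ltbp family, Smad3, Smad4, Ccn2, the genes ordered as Tgfbi or in reverse among the response genes, and single marker and interferon-induced genes were added after their values were seen. The members and lists were chosen with earlier results of these data known.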

Additional observations from a re-analysis of the deposited data

How the results depend on the processing

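No paired analysis was possible because each group has 1 array. The count of member probe sets at least 2-fold apart was 0 for shHIF-1a over control under all 6 alternatives. For shHIF-2a over control, 0 in the main setting, it was 1 after quantile normalization (Tgfbi, lower) and 1 with no minimum (Tgfb1, higher, near background). For shHIF-2a over shHIF-1a, 1 in the main setting, it was 2 after quantile normalization (both Tgfbi probe sets), and 0 with 16 added before log2, with a minimum of 64 and with a mean of at least 16. Among the other pathway genes the count for shHIF-1a over control, 0 in the main setting, was 2 with no minimum, and that for shHIF-2a over control, 4 in the main setting, was 2 with 16 added. Of 21 differences of measured member probe sets none changed sign under cyclic loess, quantile normalization or the added 16; 4 moved by more than the SD between probe sets after quantile normalization and 4 with 16 added. The scaling alternatives took the median of all measured probe sets for shHIF-2a over control from 0.09 to 0.01 (cyclic loess) and −0.02 (quantile). Differences that were exactly 0 may hide small ones, and 6 of 13 member probe sets were too dim to use.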
